A study of Mus musculus with 12 samples.

Results

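Mouse hepatic progenitor cells given interleukin 13 (IL-13) were compared with cells given interleukin 4 (IL-4) at the same concentration, 50 ng/mL, to describe how nearly equal the 2 treated states were and which functions leaned to either cytokine. All 8 cytokine arrays were used, 4 of IL-13 and 4 of IL-4, with the 4 vehicle arrays of the study (12 arrays in all) kept in the same fit. The comparison covered 10453 of the 19057 genes named on the array, each represented by an array probe with 1 gene symbol that was detected on at least 4 of the 12 arrays. The cells had been sorted as live cells with EpCAM, CD24 and CD133 on their surface and without CD45, CD31 and TER119, and were then cultured. The culture medium of every group contained IL-6, hepatocyte growth factor and epidermal growth factor at 10 ng/mL each and dexamethasone at 100 nM. After 24 h without serum the cells received recombinant IL-13, recombinant IL-4 or the vehicle alone, 0.1% bovine serum albumin, which is called control here. The sources used here do not give the length of the cytokine exposure or the species of the recombinant proteins, and the equal dose is one of mass. The labels do not say whether the 4 arrays of a group stand for separate cultures, so the p-values cover the variation among these arrays, possibly technical, and nothing more.

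IL-4 and IL-13 are related cytokines of type 2 immunity, the form of immune response raised against worms and in allergy. On epithelial cells both bind a receptor made of the IL-4 receptor alpha chain (Il4ra) and the IL-13 receptor alpha 1 chain (Il13ra1). Janus kinases bound to these chains phosphorylate the transcription factor STAT6, which enters the nucleus and binds palindromic TTC and GAA motifs. IL-13 has in addition a receptor chain of its own, Il13ra2, known as a decoy that removes the cytokine. In the liver IL-13 and IL-4 are known for their part in fibrosis and in the growth of bile duct cells.

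Each of 2 chips carried 2 arrays of every group. IL-13 and IL-4 arrays held fixed positions on every chip, so position and cytokine cannot be told apart. Between 18469 and 19869 of 45281 probes were detected on an array, and the number of arrays limits the precision. Values are normalised log2 signals, on which a difference of 1 is 2-fold. The normalisation adds a constant that pulls the differences of dim probes toward 0. Bile duct markers were present in both cytokine groups, while genes of the surface markers used for sorting were detected only in part. The bile duct keratin gene Krt19 averaged 11.48 ± 0.09 with IL-13 and 11.52 ± 0.05 with IL-4, and the duct transcription factor gene Sox9 10.05 ± 0.12 and 9.94 ± 0.21 (SD, n = 4 each). Cd24a, which encodes CD24, averaged 7.83 and 7.85. Prom1, which encodes CD133, was detected on 3 IL-13 arrays and 1 IL-4 array, and the Epcam probe on 0 arrays of any group. Of 40 listed hepatocyte products with a probe 16 were measured, and Alb was detected on 0 arrays. Of markers of other cells with a probe, 2 of 14 macrophage, 1 of 8 lymphocyte and 4 of 12 endothelial genes were measured. So were 4 of 12 stellate cell and 5 of 9 erythroid genes, against 10453 of 19057 genes of the whole array.

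The STAT motif of the background can be read in the promoters of several genes that both cytokines raised. RefSeq promoter sequences (build GRCm38.p6, 250 bases before to 50 after each start) were searched for TTCNNNNGAA and for the shorter TTCNNNGAA. Each motif is its own reverse complement, so 1 search covers both strands, and a match of one can overlap a match of the other but not contain it. Of all 32851 promoters 6.95% held the longer motif, 8.30% the shorter and 14.57% either. Of the 33 genes raised at least 2-fold by the mean of both cytokines, 22 had a promoter in the table and 8 of these held a match (36.36%). They were Chil4, Chil3, Cish, Prss35, Ccl17, Cidec, Reg1 and Hemk1, named after their values were seen. The longer motif was found in 5 of these and the shorter in 4, with only the shorter in Chil4, Chil3 and Cish. Of the 8527 tested genes with a promoter, 13.80% held either motif. Among all raised genes with a promoter the share was 16.89% of 296, and among lowered genes 12.90% of 217. The promoters below belong to 4 of these genes and to Slc26a4, the raised gene with the smallest p between the cytokines, which held no match. Capitals mark the motif.
Cish, chr9:107296409-107296708, + strand: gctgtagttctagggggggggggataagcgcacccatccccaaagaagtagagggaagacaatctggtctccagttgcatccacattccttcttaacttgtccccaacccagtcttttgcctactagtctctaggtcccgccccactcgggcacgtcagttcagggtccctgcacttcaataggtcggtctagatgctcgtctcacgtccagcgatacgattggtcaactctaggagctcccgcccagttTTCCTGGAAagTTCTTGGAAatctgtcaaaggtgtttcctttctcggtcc
Ccl17, chr8:94810203-94810502, + strand: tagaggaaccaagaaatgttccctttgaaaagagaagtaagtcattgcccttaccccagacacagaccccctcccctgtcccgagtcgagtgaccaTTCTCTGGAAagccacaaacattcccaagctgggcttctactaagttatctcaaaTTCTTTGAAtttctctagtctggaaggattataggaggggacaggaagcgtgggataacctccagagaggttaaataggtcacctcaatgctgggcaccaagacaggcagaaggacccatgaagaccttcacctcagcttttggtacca
Chil4, chr3:106219430-106219729, - strand: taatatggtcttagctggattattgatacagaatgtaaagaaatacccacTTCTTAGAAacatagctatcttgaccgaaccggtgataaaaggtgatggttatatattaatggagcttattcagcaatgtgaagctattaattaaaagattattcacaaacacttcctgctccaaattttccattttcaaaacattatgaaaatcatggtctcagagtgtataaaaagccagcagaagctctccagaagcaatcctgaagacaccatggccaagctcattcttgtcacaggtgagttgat
Prss35, chr9:86743383-86743682, + strand: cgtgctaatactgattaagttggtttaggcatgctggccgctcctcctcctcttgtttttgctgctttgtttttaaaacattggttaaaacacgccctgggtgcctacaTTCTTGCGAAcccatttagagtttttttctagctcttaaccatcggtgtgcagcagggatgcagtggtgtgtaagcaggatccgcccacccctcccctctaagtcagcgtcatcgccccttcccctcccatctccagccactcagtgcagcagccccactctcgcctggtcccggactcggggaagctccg
Slc26a4, chr12:31559935-31560234, - strand: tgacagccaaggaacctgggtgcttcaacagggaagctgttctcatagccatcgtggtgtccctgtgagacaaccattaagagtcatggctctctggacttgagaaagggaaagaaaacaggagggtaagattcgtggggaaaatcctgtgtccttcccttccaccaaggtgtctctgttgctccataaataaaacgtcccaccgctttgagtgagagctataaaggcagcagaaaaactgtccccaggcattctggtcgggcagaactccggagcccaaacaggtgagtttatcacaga

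The IL-13 and IL-4 states were nearly equal gene by gene. None of the 10453 genes (0% called) passed an adjusted p of 0.05 between the cytokines, in limma with Benjamini-Hochberg adjustment. The smallest adjusted p, 0.133, was shared by Slc26a4, Tmed2, Prl2c3, Prl2c4 and Pam16. At an unadjusted p under 0.05 there were 852 genes (8.15%), 520 higher with IL-13 (4.97%) and 332 lower (3.18%). The median absolute difference was 0.07 on the log2 scale (1.05-fold), and 95% of genes differed by less than 0.23 (1.17-fold). A difference of at least 1.5-fold was seen for 9 genes, and all 9 were lower with IL-13. They were the hemoglobin genes Hbb-bt, Hba-a1 and Hbb-bs, then Acta2, Lcn2 and Uts2b, and the proliferin genes Prl2c4, Prl2c3 and Prl2c2, of which Prl2c2 was named after its values were seen.

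The intervals bound what could have been missed. For 10367 genes (99.2%) the 95% interval of the difference lay wholly within 1.5-fold in either direction. For all but 6 genes it lay within 2-fold. The 6 exceptions were Acta2, Lcn2, Uts2b and the 3 hemoglobin genes. Of the 642 genes changed by the mean of both cytokines, treated below, 624 (97.2%) had an interval within 1.5-fold. Their median change was itself smaller than that, 0.46 with IL-13 and 0.39 with IL-4 for raised genes, -0.35 and -0.33 for lowered ones. A gene changed by 1 cytokine only could lie within this margin, so the count does not show that the responses were equal. Whole arrays were compared as well. The root mean square log2 difference over all genes had a median of 0.211 in the 16 pairs of an IL-13 and an IL-4 array, against 0.196 in pairs of IL-13 arrays and 0.198 in pairs of IL-4 arrays. An IL-13 array lay 0.283 from a control array and an IL-4 array 0.272 (medians of 16 pairs each, which share arrays).

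**Figure D1:**
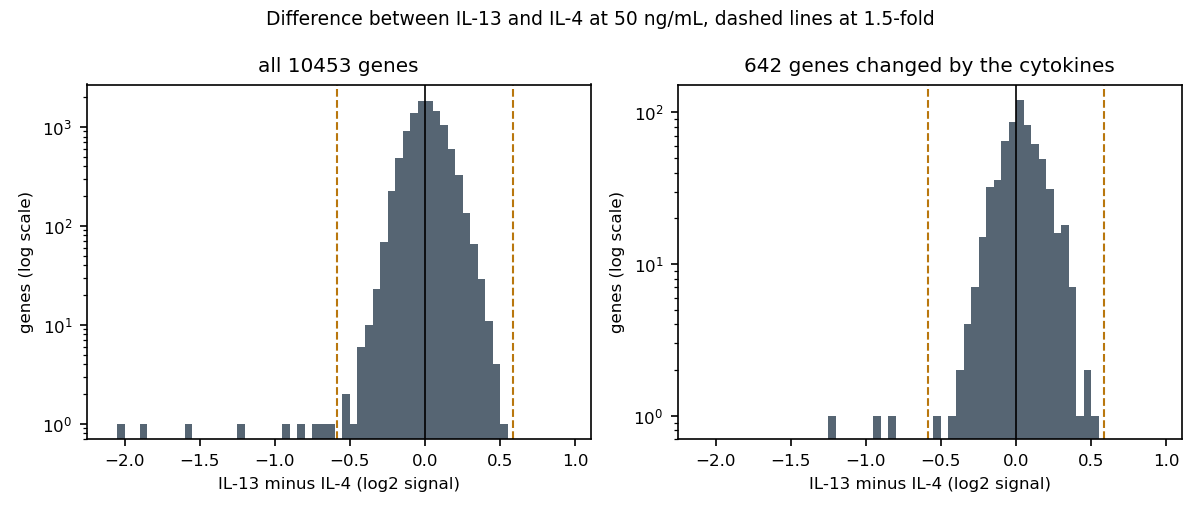
Histograms of the IL-13 minus IL-4 difference in log2 signal for all 10453 genes (left) and for the 642 genes changed by the mean of both cytokines (right), with the number of genes on a log axis and dashed lines at 1.5-fold. Beyond the dashed lines lie 9 genes, all on the side of lower signal with IL-13.

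The genes that responded to the cytokines leaned to IL-13 more often than other genes did. Responders were taken as the genes for which the mean of the IL-13 and IL-4 groups differed from control at a limma adjusted p under 0.05, a contrast that does not use the difference between the cytokines. There were 642 (6.14% of those tested), 367 raised and 275 lowered. The change from control was larger with IL-13 for 455 of the 642 (70.9%), namely for 285 of 367 raised genes and 170 of 275 lowered genes. In the other genes the same share was 54.2%, and over all genes 52.6% were higher with IL-13 and 47.4% lower. The excess was small in size. The median rise of the raised genes was 0.46 with IL-13 and 0.39 with IL-4, and the median fall of the lowered genes -0.35 with IL-13 and -0.33 with IL-4. Of the 36 responders changed at least 2-fold, 32 had the larger change with IL-13. An unadjusted p under 0.05 between the cytokines was found for 118 responders (18.4%), against 7.48% of the other genes, and 106 of the 118 had the larger change with IL-13. These counts describe the same arrays over genes that move together and carry no test.

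Averaged over genes, the lean could be read in single arrays. The mean change of the 367 raised genes from the control mean was 0.61, 0.66, 0.68 and 0.61 on the IL-13 arrays, against 0.59, 0.58, 0.49 and 0.55 on the IL-4 arrays, with no overlap. The mean change of the 275 lowered genes was -0.40, -0.41, -0.40 and -0.40 on the IL-13 arrays and -0.34, -0.39, -0.33 and -0.36 on the IL-4 arrays, again with no overlap. Of the 642 responders, which were chosen on the arrays of both chips, 393 had the larger change with IL-13 on chip 1 and 465 on chip 2. With responders chosen on 1 chip alone, the share was 54.8% on chip 1, near the 54.2% of the other genes in the full fit, and 73.1% on chip 2. For 0 genes did the difference between the cytokines differ between the chips (smallest limma adjusted p = 0.509, with 400 genes at an unadjusted p under 0.05). Without IL-4 replicates 2 and 4, the arrays of highest hemoglobin signal, the number was 475 of 642.

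**Figure D2:**
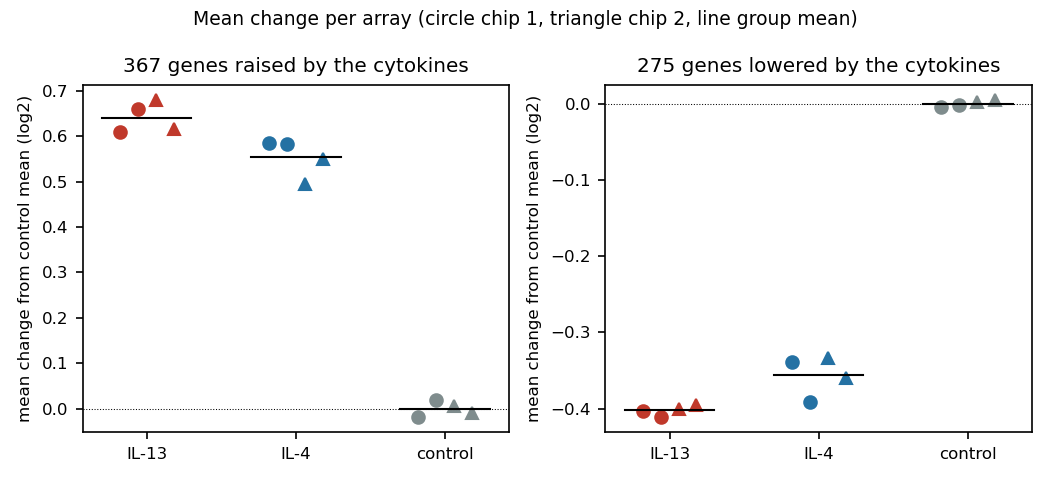
Mean change from the control mean, in log2 signal, of the 367 genes raised (left) and the 275 genes lowered (right) by the mean of both cytokines, for each IL-13, IL-4 and control array, with circles for chip 1, triangles for chip 2 and a line at each group's mean. The 4 IL-13 arrays lie farther from 0 than the 4 IL-4 arrays in both panels.

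The strongest responses were seen with both cytokines. Chil4, the gene of a mouse chitinase-like secretory protein of type 2 inflammation, had log2 signals of 13.47, 13.41, 13.40 and 13.39 with IL-13, against 13.36, 13.24, 12.81 and 13.36 with IL-4 and 4.32 to 5.12 in control. The IL-13 arrays all lay above the IL-4 arrays by a small margin, with a difference of 0.23 ± 0.15 (SE; limma adjusted p = 0.682). Chil3, a near-identical gene whose probes may bind the same transcripts, averaged 9.32 with IL-13 and 9.31 with IL-4 and was detected on 0 control arrays. The difference was 0.01 ± 0.15 by this probe, while 2 dimmer Chil3 probes gave 0.36 and 0.28. Igfbp5, whose product binds insulin-like growth factors outside the cell, lay at 9.85, 9.87, 9.79 and 9.63 with IL-13, against 10.16, 9.77, 9.11 and 9.28 with IL-4, with control at 4.73 to 5.20. The groups overlapped, and the difference was -0.11 on chip 1 and 0.52 on chip 2. The 2 further Igfbp5 probes gave 0.39 and 0.40, against 0.21 by the probe used. The goblet cell gene Spink4 (6.21 with IL-13, 6.13 with IL-4) likewise overlapped.

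Several other strongly raised genes were a little higher with IL-13. Cish, a feedback inhibitor of cytokine receptors of the SOCS family, had 11.64, 11.70, 11.66 and 11.66 with IL-13, against 11.56, 11.38, 11.60 and 11.41 with IL-4 and 8.80 to 9.26 in control. The groups did not overlap, and the difference was 0.18 ± 0.09 (limma adjusted p = 0.616). Ccl17, a chemokine gene whose product draws in T helper 2 cells, had 8.32, 8.44, 8.39 and 8.36 with IL-13, against 8.19, 8.28, 7.93 and 7.72 with IL-4 and 5.86 to 6.20 in control. This was a difference of 0.35 ± 0.11 without overlap (limma adjusted p = 0.462). Egln3, a prolyl hydroxylase gene of the hypoxia pathway, differed by 0.31 and the serine protease gene Prss35 by 0.31, both without overlap (limma adjusted p = 0.479 and 0.431). The calpain gene Capn13 differed by 0.36, the heparan sulfate sulfotransferase gene Hs3st1 by 0.26 and the transmembrane protease gene Tmprss2 by 0.25, all with overlapping arrays. Tgm2, the gene of tissue transglutaminase, had 12.67, 12.79, 12.70 and 12.58 with IL-13, against 12.49, 12.41, 12.30 and 12.27 with IL-4 and 11.21 to 11.54 in control. Here the groups were apart by 0.32 ± 0.09 (limma adjusted p = 0.431).

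**Figure D3:**
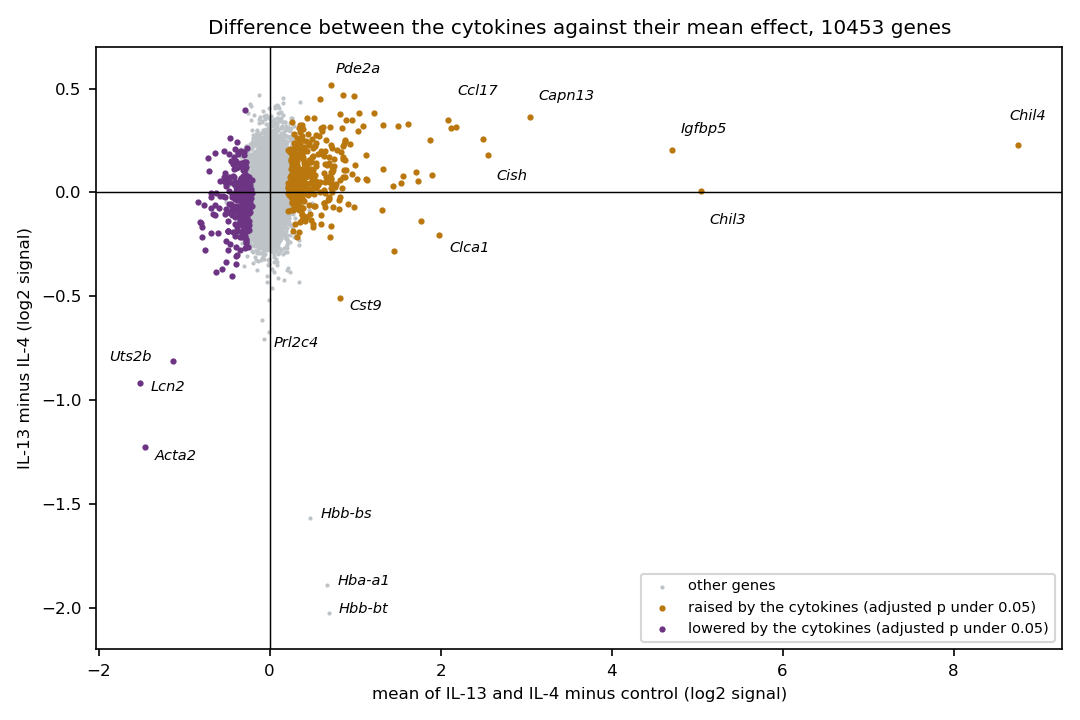
The IL-13 minus IL-4 difference of each of 10453 genes (vertical, log2 signal) against the mean change with both cytokines from control (horizontal, log2 signal), with raised and lowered responders in colour. Most strongly raised genes lie slightly above 0, Cst9 and Clca1 below it, and the lowered genes Acta2, Lcn2 and Uts2b far below it, while the hemoglobin genes at the bottom were not responders.

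The genes with the smallest p among those higher with IL-13 were led by responders of modest signal. Slc26a4, which encodes the anion exchanger pendrin, had 5.50, 5.49, 5.70 and 5.24 with IL-13, against a mean of 5.02 ± 0.02 (SD, n = 4) and no array above 5.03 with IL-4, and 4.34 to 4.49 in control. The cytokine groups did not overlap, and the difference was 0.47 ± 0.09 (1.38-fold, 95% interval 0.29 to 0.65, limma adjusted p = 0.133). No control array detected Slc26a4, so its rise is bounded only, at least 1.90-fold with IL-13 and at least 1.37-fold with IL-4. For such bounds the treated mean was divided by a floor averaged over the control arrays, the floor of an array being its dimmest detected probe or, where brighter, the probe itself. Chil5, another chitinase-like gene of the mouse, had 4.94, 5.31, 5.12 and 4.92 with IL-13, against 4.57 to 4.70 with IL-4. The difference was 0.45 ± 0.09 without overlap (limma adjusted p = 0.134), and the rise over control was at least 1.42-fold with IL-13 and at least 1.04-fold with IL-4. Pde2a, which encodes a phosphodiesterase of cyclic nucleotides, had 5.63, 5.74, 5.97 and 5.67 with IL-13, against 5.21, 5.06, 5.21 and 5.47 with IL-4 and 4.63 to 4.98 in control. It had the largest positive difference of the responders, 0.52 ± 0.10 (1.43-fold, limma adjusted p = 0.134), again without overlap. The ectonucleotidase gene Entpd2 and the neutral sphingomyelinase gene Smpd3, both raised by the cytokines, differed by 0.38 each without overlap (limma adjusted p = 0.419 and 0.358). The apolipoprotein gene Apoa1, also raised, had a mean of 5.77 with IL-13, 5.31 with IL-4 and 4.55 in control, with overlapping cytokine arrays (difference 0.47 ± 0.19, limma adjusted p = 0.599).

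Other genes higher with IL-13 stood near control with at least 1 cytokine. Hid1, which encodes a Golgi protein of secretory granule formation, had 6.51, 6.81, 7.06 and 6.90 with IL-13, against 6.39, 6.27, 6.41 and 6.39 with IL-4 and 6.39 to 6.48 in control. The difference was 0.46 ± 0.09 (limma adjusted p = 0.196), but a dimmer Hid1 probe gave 0.09. Mtus1, a gene of a microtubule-associated protein, was detected on 4 IL-13, 0 IL-4 and 1 control arrays, and its IL-13 signal was at least 1.18-fold that with IL-4 (limma adjusted p = 0.246). Tlr2, which encodes a receptor of bacterial lipoproteins, had 6.69, 6.89, 6.95 and 6.71 with IL-13, against 6.41, 6.33, 6.39 and 6.53 with IL-4 and 6.69 to 7.03 in control. Thus the IL-13 arrays shared the control range and the IL-4 arrays lay below it (difference 0.39 ± 0.09, limma adjusted p = 0.286). Slc27a4, a gene of fatty acid uptake, lay at 6.02 with IL-13, 5.68 with IL-4 and 5.58 in control (limma adjusted p = 0.375). The zinc finger genes Zfp758 and Zfp653 differed by 0.47 and 0.29, Zfp758 with overlapping arrays (limma adjusted p = 0.246 and 0.407).

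The genes lower with IL-13 included the largest differences of the comparison. Acta2, which encodes smooth muscle actin, had 5.78, 5.91, 5.95 and 6.89 with IL-13, against 7.63, 7.77, 7.51 and 6.52 with IL-4 and 7.85 to 8.81 in control. Its mean fell with the cytokines, and the difference between them was -1.23 ± 0.27 (2.34-fold, 95% interval -1.80 to -0.66, limma adjusted p = 0.246). The groups overlapped through IL-13 replicate 4 and IL-4 replicate 4, which lie on chip 2. The difference was -1.86 on chip 1, where Acta2 passed (limma adjusted p = 0.000419), and -0.60 on chip 2, and 3 dimmer Acta2 probes gave -0.35, -0.31 and -0.52. Acta2 also marks stellate cells and fibroblasts, of whose other listed markers 3 were measured, among them Des and Ngfr with differences of 0.12 each, while Col1a1, Col3a1, Dcn, Hand2, Lrat, Lum and Pdgfrb were detected on 0 arrays. The summed linear signal of the 4 measured markers, Acta2 included, was 127 to 199 with IL-13, 163 to 286 with IL-4 and 297 to 516 in control. Since it includes Acta2, the sum is no measure apart from that gene. The part of stellate cell RNA in the Acta2 difference was not tested. In bulk RNA fewer cells of a type and less RNA per cell cannot be told apart.

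Lcn2, which encodes a lipocalin that binds bacterial iron carriers, had 5.10, 5.65, 5.31 and 5.48 with IL-13, against 6.08, 6.95, 6.01 and 6.16 with IL-4 and 6.89 to 7.84 in control. The cytokine groups did not overlap and differed by -0.92 ± 0.20 (1.89-fold, limma adjusted p = 0.246), with values of -1.14 on chip 1 and -0.69 on chip 2. Uts2b, which encodes a urotensin-related peptide, had 6.72, 6.27, 6.24 and 6.83 with IL-13, against 7.50, 7.14, 7.40 and 7.28 with IL-4 and 7.66 to 8.76 in control. The difference was -0.81 ± 0.19 (1.76-fold, limma adjusted p = 0.309), nearly the same on both chips and without overlap. Both genes were responders, so that all 3 strongly lowered genes were lower still with IL-13. Weaker responders followed the same order. S100a4, a gene of a calcium-binding protein, had 6.19, 5.98, 6.08 and 6.26 with IL-13, against 6.62, 6.47, 6.68 and 6.35 with IL-4 and 6.53 to 6.93 in control (difference -0.40 ± 0.10, limma adjusted p = 0.375). The RNA polymerase I subunit gene Polr1e differed by -0.31 and the mucin gene Muc1 by -0.34, both without overlap (limma adjusted p = 0.353 and 0.479). All 3 further Muc1 probes were lower with IL-13 as well (-0.26, -0.25 and -0.35). Among the largest falls with the cytokines, Pcsk6, a proprotein convertase gene, did not share this lean (6.12 with IL-13, 6.16 with IL-4, 6.98 in control), nor did the granzyme gene Gzme (4.55, 4.71 and 5.42) beyond a difference of -0.17 with overlapping arrays. The glucuronosyltransferase genes Ugt1a6a and Ugt1a6b, whose transcripts are near-identical, and the cornified envelope gene Sprr1b, all among the 8 largest falls, differed by -0.14, -0.21 and -0.15 with overlap.

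**Figure D4:**
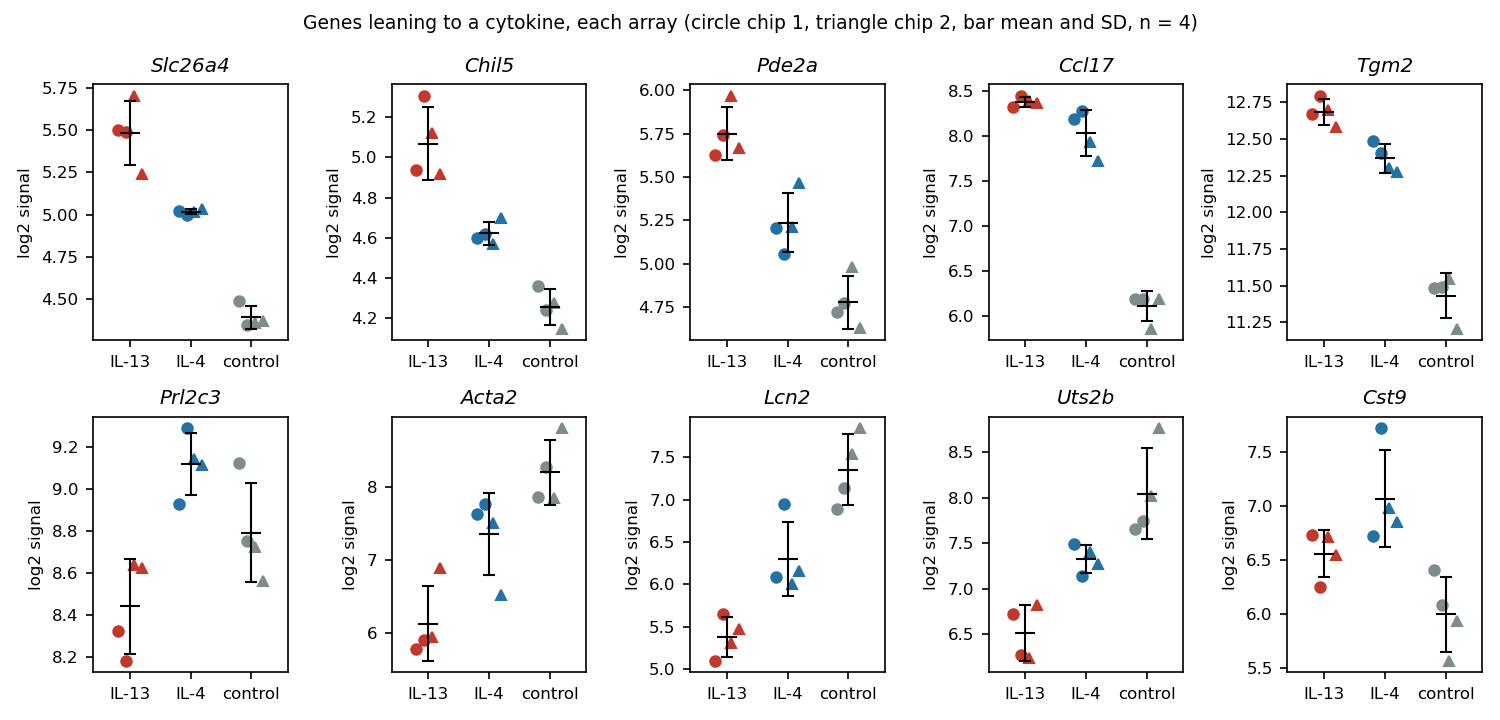
Normalised log2 signal of 10 genes on each IL-13, IL-4 and control array, with circles for chip 1, triangles for chip 2 and bars for the mean and SD of 4 arrays; vertical axes differ between panels and do not start at 0. Slc26a4, Chil5, Pde2a, Ccl17 and Tgm2 are highest with IL-13, Acta2, Lcn2 and Uts2b lowest with IL-13, and Prl2c3 and Cst9 highest with IL-4.

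Several genes had their cytokine means on either side of the control mean. Prl2c3, a gene of the placental hormone family of proliferins, had 8.33, 8.18, 8.64 and 8.62 with IL-13, against 8.93, 9.29, 9.14 and 9.11 with IL-4 and 8.56 to 9.12 in control. The difference was -0.67 ± 0.12 (1.59-fold, limma adjusted p = 0.133). Prl2c4 and Prl2c2, whose sequences are so alike that their probes may bind the same transcripts, differed by -0.71 and -0.61, all 3 without overlap. Tmed2, which encodes a cargo receptor of transport between endoplasmic reticulum and Golgi, averaged 6.12 ± 0.14 with IL-13 (SD, n = 4) with no array above 6.28, against 6.44, 6.65, 6.62 and 6.61 with IL-4 and 6.24 to 6.44 in control (difference -0.46 ± 0.08, limma adjusted p = 0.133). Pam16, a gene of the mitochondrial protein import motor, had 4.73, 4.92, 4.58 and 5.02 with IL-13, against 5.39, 5.28, 5.28 and 5.38 with IL-4 and 4.86 to 5.25 in control. Its difference was -0.52 ± 0.10 (limma adjusted p = 0.133). The cell cycle inhibitor gene Cdkn2a, the ribonuclease gene Rnasek, Ccdc166 and 1700016C15Rik differed by -0.34, -0.38, -0.41 and -0.38, each without overlap (limma adjusted p from 0.286 to 0.374), though 1700016C15Rik stood at the control level with IL-13 (5.58 with IL-13, 5.96 with IL-4, 5.56 in control).

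The change from control was larger with IL-4 for 187 of the 642 responders, 82 raised and 105 lowered, none past the threshold. Cst9, a cystatin gene, had 6.73, 6.25, 6.71 and 6.55 with IL-13, against 6.72, 7.72, 6.98 and 6.85 with IL-4 and 5.57 to 6.41 in control. The cytokine groups overlapped, and its difference of -0.51 ± 0.19 (limma adjusted p = 0.537) was -0.29 without IL-4 replicates 2 and 4. Clca1, a goblet cell gene, averaged 6.47 ± 0.40 with IL-13 and 6.68 ± 0.33 with IL-4 (SD, n = 4 each), which did not differ beyond the spread between arrays. Tlr2, described above, was lowered more by IL-4, and so was Acox2, an oxidase of bile acid synthesis (7.99 with IL-13, 7.80 with IL-4, 8.26 in control). Of the 118 responders at an unadjusted p under 0.05, 12 had the smaller change with IL-13.

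Genes of the receptors and of JAK-STAT signalling leaned to IL-13 as a list, by about the spread between arrays. The list's median log2 signal had a pooled SD of 0.08 between arrays of a group. Of 31 measured members 26 were higher with IL-13 and 5 lower, against 52.6% and 47.4% of all genes, and the median difference was 0.09 (0.06 without IL-4 replicates 2 and 4), against 0.01 over all genes. At an unadjusted p under 0.05, 5 members were higher and 0 lower (16.1% and 0%, against 4.97% and 3.18% of all genes), none passed after adjustment, and 30 of 31 had an interval within 1.5-fold. The decoy receptor gene Il13ra2 passed detection on 3 IL-13 arrays, 1 IL-4 array and 0 control arrays. It had 4.76, 4.89, 4.67 and 4.53 with IL-13, against 4.33, 4.44, 4.22 and 4.56 with IL-4, so that 1 IL-4 array lay within the IL-13 range (difference 0.32 ± 0.09, limma adjusted p = 0.431). Il13ra1, the chain that both cytokines bind, averaged 6.49 ± 0.16 with IL-13, 6.47 ± 0.16 with IL-4 and 6.82 ± 0.11 in control (SD, n = 4 each), and Il4ra was detected on 0 arrays. Irs2, an adaptor of insulin and IL-4 receptors, had the largest difference of the list, 0.43 ± 0.17, with overlapping arrays (limma adjusted p = 0.554). The kinase genes Jak3 and Tyk2 differed by 0.26 and 0.23, but 2 dimmer Tyk2 probes gave -0.06 and 0.06. Jak1, Jak2 and Stat6 differed by -0.03, 0.12 and 0.12. Among feedback inhibitors, Socs2 was higher with IL-13 without overlap (0.18 ± 0.07, limma adjusted p = 0.554), while Socs3 differed by 0.04, Socs4 by -0.12 and Socs6 by -0.14.

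Lists of STAT6 targets and of type 2 epithelial genes were mixed. Of 20 STAT6 targets known from macrophages and lymphocytes, 12 were higher with IL-13 and 8 lower (median difference 0.04, but -0.01 on chip 1), and all 4 IL-13 arrays lay above all 4 IL-4 arrays for 5 of them, against 3.24% of all genes. Among 13 goblet and type 2 epithelial genes 8 were higher and 5 lower (median 0.10). This list held Slc26a4 and Creb3l1, a transcription factor gene of secretory cells (difference 0.36), on the higher side, and Muc1 and the trefoil factor gene Tff2 (-0.24) on the lower side. For Muc1 all 4 IL-13 arrays lay below all 4 IL-4 arrays, as they did for 2.07% of all genes. Of 30 chemokine and inflammatory genes 12 were higher and 18 lower (median -0.03, but 0.01 with the submitters' own log2 values). The NF-kappaB gene Relb was higher by 0.20 without overlap, and Il11 and the chemokine gene Ccl20 differed by -0.28 and -0.29 with overlap. Of 15 acute phase and complement genes 8 were higher and 7 lower with a median near 0 whose sign varied with the setting, and with C4b and Cfi at 0.42 and 0.33 beside Lcn2 at -0.92.

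Bile duct genes and the Wnt and Notch pathways leaned slightly to IL-13, by less than the spread between arrays. The pooled SD of a list's median log2 signal between arrays of a group was 0.14 for bile duct, 0.11 for Wnt and 0.10 for Notch genes. Of 21 bile duct and progenitor markers 14 were higher and 7 lower with IL-13 (median 0.10), and 13 and 8 without IL-4 replicates 2 and 4 (median 0.06), led by the transcription factor gene Sox4 (9.68 with IL-13, 9.41 with IL-4, without overlap) and Bicc1 (12.80 and 12.54). A dimmer Sox4 probe gave -0.05, and dimmer Bicc1 probes gave 0.28, 0.09 and 0.20. The duct keratins Krt7 and Krt19 differed by -0.08 and -0.04. Of 30 Wnt genes 22 were higher and 8 lower (median 0.06), and 17 and 13 without IL-4 replicates 2 and 4. The co-receptor gene Lrp5 differed by 0.35 and the beta-catenin gene Ctnnb1 by 0.22, both without overlap, though a dimmer Lrp5 probe gave -0.16. Dimmer Ctnnb1 probes gave 0.22, 0.05 and 0.03. The Wnt target gene Axin2, a responder, differed by 0.21 with overlap. Of 23 Notch genes 15 were higher and 8 lower (median 0.08), and without IL-4 replicates 2 and 4 this median was 0.01. Dtx4, a gene of the Deltex ubiquitin ligases and a responder, differed by 0.25, and Notch1 by -0.23. Of 35 TGF-beta genes 24 were higher and 11 lower (median 0.05), and of 44 matrix genes 27 were higher and 17 lower (median 0.04). The collagen VI genes Col6a1 and Col6a2 differed by 0.36 and 0.39 with overlap, but dimmer probes gave 0.22 for Col6a1 and 0.01 for Col6a2. Of 29 glycolysis and hypoxia genes 21 were higher and 8 lower (median 0.05), with Egln3 at the top and the glycolytic enzyme gene Pgk1 at -0.19.

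Housekeeping machinery leaned slightly to IL-4. The pooled SD of a list's median log2 signal between arrays of a group was 0.04 for proteasome, 0.07 for respiratory chain and 0.12 for xenobiotic genes. Only the proteasome lean of these 3 exceeded that spread. Of 34 proteasome subunit genes 4 were higher with IL-13 and 30 lower, with a median difference of -0.07. Psmd11, a subunit gene of the regulatory particle, differed by -0.23, and for Psma7, of the catalytic core (11.24 with IL-13, 11.40 with IL-4), the groups did not overlap. Without IL-4 replicates 2 and 4 there were 29 lower members, on chip 1 28 and on chip 2 21, where the median was -0.02. On single arrays the mean log2 signal of the list was 9.84, 9.83, 9.82 and 9.91 with IL-13, against 9.92, 9.98, 9.89 and 9.90 with IL-4 and 9.86 to 9.96 in control, so the 3 groups overlapped. Of 71 respiratory chain subunit genes 16 were higher and 55 lower (median -0.05), with Sdhb and Ndufb9 at -0.27 and -0.24. On chip 1 the list had 11 higher and 60 lower members (median -0.08), on chip 2 29 and 42 (median -0.02), and without IL-4 replicates 2 and 4 21 and 50 (median -0.04). Cytosolic ribosomal protein genes were closer to balance, with 22 of 57 higher, 35 lower and a median of -0.02. This depended on the normalisation. With scaling to the 75th percentile in place of quantile normalisation, 8 ribosomal genes were higher and 49 lower (median -0.06). The respiratory chain then had 8 higher and 63 lower (median -0.09), and the proteasome 3 and 31 (median -0.11). Of 39 xenobiotic and antioxidant genes 12 were higher and 27 lower (median -0.06). This median was -0.02 on chip 2 (15 higher, 24 lower), -0.04 without IL-4 replicates 2 and 4, and -0.02 with the submitters' log2 values. Of 57 cell cycle genes 19 were higher and 38 lower (median -0.05), but the direction turned between the chips, with medians of 0.03 on chip 1 and -0.10 on chip 2. The thymidine kinase gene Tk1 differed by -0.18 and the phosphatase gene Cdc25b by 0.30. Dimmer Tk1 probes gave -0.24, -0.12 and 0.02, and a dimmer Cdc25b probe gave 0.09. The remaining lists of at least 5 measured genes, among them cholesterol synthesis (10 of 21 higher), fatty acid oxidation (19 of 35) and the unfolded protein response (20 of 40) and leaving aside the erythroid genes, had medians between -0.05 and 0.05.

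**Figure D5:**
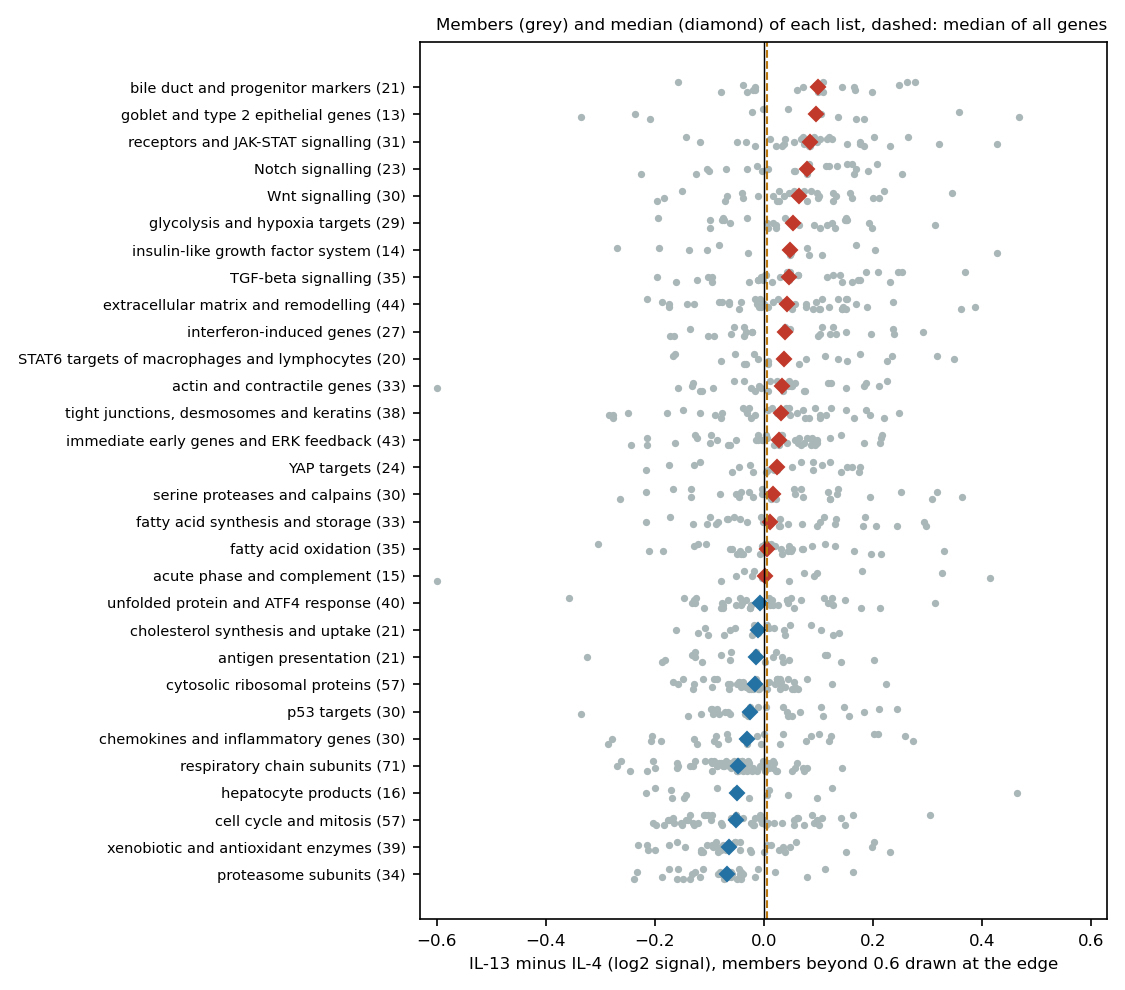
IL-13 minus IL-4 difference in log2 signal of the members of each gene list (grey points, number measured in brackets), with the median as a diamond and a dashed line at the median of all genes; lists with fewer than 5 measured members and the erythroid list are not drawn. Medians lie between -0.07 (proteasome subunits) and 0.10 (bile duct and progenitor markers), while members of every list spread on both sides of 0.

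The largest nominal differences of all, in hemoglobin genes, came from single arrays. Hbb-bt had 4.73, 4.94, 4.50 and 4.23 with IL-13, against 5.54, 7.01, 4.62 and 9.32 with IL-4 and 4.43 to 6.05 in control (difference -2.02 ± 0.66, limma adjusted p = 0.479). Hba-a1 and Hbb-bs differed by -1.89 and -1.57, Hbb-bs without overlap, and without IL-4 replicates 2 and 4 the 3 differences were -0.48, -0.36 and -0.39. Near-identical hemoglobin genes can bind each other's probes. The mean of the 3 genes was 6.77 on IL-4 replicate 2, 8.95 on IL-4 replicate 4 and 5.95 on control replicate 4. All remaining arrays lay between 4.40 and 5.36. The erythroid genes Alas2, Epb42 and Klf1 were detected on 0 arrays. The 2 other measured erythroid genes, Hemgn and Slc4a1, did not share the lean, with dim signals and differences of 0.18 and 0.02. The summed linear signal of the erythroid list, hemoglobin genes included, ran from 114 to 137 with IL-13, 126 to 1568 with IL-4 and 117 to 235 in control. The part of red cell RNA in the other differences was not tested. Without IL-4 replicates 2 and 4 the difference was -1.44 for Acta2, -0.66 for Lcn2, -0.94 for Uts2b, -0.59 for Prl2c3 and -0.57 for Prl2c4.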

How the data were processed

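Illumina mouse beadchip arrays of 12 samples were analysed. The deposited table holds per probe the raw bead intensity and a detection p-value of each array, exported with GenomeStudio 2011.1 per the submitters' processing notes. The authors' value table holds log2 values that, set against the deposited intensities, equal their log2 plus a constant of 2.22 to 2.34 for each array, which brings every array to a median of 8.97. It served as an alternative. The probes' intensities were background-corrected with the detection p-values and quantile-normalised in limma 3.58.1 (R 4.3.3, neqc, offset 16), and taken to log2. Probes detected at p under 0.05 on at least 4 of 12 arrays numbered 19915. Of these 16680 had 1 gene symbol, and the brightest probe of each gene was used, which gave 10453 genes. A linear model over the 3 groups with moderated variances gave IL-13 minus IL-4, each cytokine minus control, and the mean of both minus control, with Benjamini-Hochberg adjustment over all genes. Simulated data with known differences were used to check the model.

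Named in the text are, for each direction between the cytokines, the 12 genes with the smallest p-values, then the 12 largest rises and 8 largest falls with both, the 5 responders of largest difference each way, receptor and marker genes, and up to 2 members of each list in each direction. Exceptions are marked, and 1 gene of this rule is not reported here. The members, the 35 gene lists and the tests were chosen with earlier results of these data known. Samples of the same number in the IL-13 and IL-4 groups deviated together by correlations of 0.05, 0.11, 0.09 and 0.01 only, so the numbers were not taken to pair them. No arrays held identical values. Alternatives covered background correction, scaling, filters, probe choice, variance model, chip and arrays left out.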

Additional observations from a re-analysis of the deposited data

Results flagged for a closer look

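Among 369 groups of 4 arrays checked, 24 held an array that stood apart from the other 3 by Dixon's criterion. Chance gives about 1 in 20 groups (5%). The groups covered 120 of the genes named by the rule or in the text, and array means such as the hemoglobin mean. With IL-13, replicate 4 stood apart for Acta2 (6.89, others at most 5.95), Irs2 (8.29, others at least 8.65), Dusp14 (8.03) and Krt7 (9.20), replicate 3 for Socs3 (8.48) and Aldh18a1 (9.73), and replicate 2 for Hs3st1 (10.40). With IL-4, replicate 1 stood apart for Prss35 (8.001) and Cldn6 (8.19), and replicate 2 for Hid1 (6.27) and Lcn2 (6.95, others at most 6.16). IL-4 replicate 3 stood apart for Dusp14 (8.27) and replicate 4 for Tgfbr3 (5.14) and Rrm1 (8.93). In control, replicate 4 stood apart for Hbb-bs (6.21), Hbb-bt (6.05), the hemoglobin mean (5.95), Chil4 (5.12) and Prom1 (4.77). Control replicate 2 stood apart for Socs6 (6.87) and Sprr1b (6.04), replicate 1 for Slc26a4 (4.49) and Zfp653 (6.81), and replicate 3 for Ccl17 (5.86).

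In 9 of 120 genes checked, every IL-13 array lay on one side of the control mean and every IL-4 array on the other. Many of the 120 were named for a small p between the cytokines, which favours this pattern. Its share over all genes was not counted. The difference between the cytokines did not pass limma's adjusted threshold for any of the 9. Higher than control with IL-13 and lower with IL-4 were Hid1 (0.38 with IL-13, -0.08 with IL-4), Mtus1 (0.29 and -0.10), Zfp653 (0.14 and -0.15), Lrp5 (0.30 and -0.04) and the proprotein convertase gene Furin (0.20 and -0.12). Lower with IL-13 and higher with IL-4 were Tmed2 (-0.20 and 0.26), Prl2c3 (-0.35 and 0.33), Pam16 (-0.27 and 0.25) and Rnasek (-0.14 and 0.24).

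Probes without a single gene symbol were outside the comparison. Of these, 3235 passed the detection filter, 3226 with no symbol and 9 with several. By the mean of both cytokines 109 of the 3235 differed from control at a limma adjusted p under 0.05, with 56 higher and 53 lower. Of the 10453 genes tested 642 did so (6.14%).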

How the results depend on the processing

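The number of genes that differed between IL-13 and IL-4 was 0 under most alternatives. It was 2 with a variance trend and robust variances (Prl2c3 and Prl2c4, limma adjusted p = 0.0180 and 0.0283), 1 on chip 1 only (Acta2), and 0 to 1 with 1 array left out (Hid1 without IL-13 replicate 1, Slc26a4 without IL-13 replicate 4, limma adjusted p = 0.0338 and 0.0322). Genes with an interval within 1.5-fold numbered 10267 to 10372 with 1 array left out and 10177 without IL-4 replicates 2 and 4. On chip 1 only such genes numbered 10005 (95.7%) and on chip 2 only 9649 (92.3%). With no detection filter, where more genes were tested, they numbered 18941 of 19057. Responders numbered 383 on chip 1 only and 193 on chip 2 only, where fewer arrays entered, and 477 to 618 with 1 array left out. The submitters' log2 values gave 206 raised and 597 lowered responders, against 367 and 275, and the cause was not tested. The share of responders with the larger change with IL-13, a result added after seeing the data, was 62.4% to 74.0% with 1 array left out, 63.5% with the submitters' values, 54.8% on chip 1 only and 73.1% on chip 2 only. With a replicate block, which the correlations did not call for, 0 genes differed, 10361 had an interval within 1.5-fold and 661 responded. Same-numbered IL-13 and IL-4 samples matched best in 1 of 4 cases. Of the single-gene values, 5 gained the threshold and 5448 kept their side of it. Of 177 genes covered by the naming rule, 23 had the other sign under at least 1 setting, among them Igfbp5, Chil3, Clca1, Spink4, Cd24a and Tff2, none of which passed the threshold in any setting. The 8 cytokine arrays alone give no contrast with control.

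Signals near background limit dim genes, among them Il13ra2, Mtus1 and Chil5, and 4 arrays a group leave a median half-width of 0.19 for the 95% interval on the log2 scale.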
